A study of Mus musculus with 24 samples.

Results

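Distal amputation of the mouse digit tip was compared with proximal amputation at 21 days, the last of the 3 days sampled, over all 15055 genes of the deposited table. The comparison rests on 8 of 24 libraries, chosen by their labels alone: 4 distal and 4 proximal libraries taken 21 days after amputation. All came from hind limb digit tips of C57BL/6 mice, an inbred laboratory strain, aged 10 to 12 weeks, and each holds bone, cartilage, marrow, dermis and epidermis together. The other 16 libraries, distal and proximal at 12 and 14 days, entered the estimate of error and the comparison between days.

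The tip of the mouse digit is known to regrow when the cut passes through the distal part of the last bone, which carries the nail, and to heal without regrowth when the cut is more proximal. Regrowth goes through wound closure under a new epidermis, a blastema of proliferating mesenchymal cells, and the formation of new bone directly within that tissue. The nail matrix, the epithelium that makes the nail plate, lies next to the blastema, and BMP and Wnt signalling are known from mouse studies to be needed for digit tip regrowth.

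Values are the deposited normalised values, which carry no known sequencing depth. A gene was called when its limma test over all 15055 genes had a Benjamini-Hochberg adjusted p under 0.05, and differences are distal minus proximal on the log2(value + 1) scale, with the standard error after ±. The labels do not say whether the libraries came from separate animals, so each p-value measures only the spread between these libraries. In bulk tissue, fewer cells of a type and less RNA per cell cannot be told apart. Table totals were 16404738 to 19351055 in the distal libraries and 15264829 to 16342155 in the proximal libraries. The first principal component of the 8 libraries held 45.95% of the variance, with distal libraries at 23.5 to 31.2 and proximal libraries at -37.5 to -16.8. Krt14, Col1a1 and Acan, listed as markers of epidermis, bone and cartilage, were detected in every library. The cartilage genes Ihh, Matn1 and Cnmd and the listed marrow and blood genes Elane, Mpo and Cd79a were not analysed here. Red cell genes differed between libraries: Hbb-bs, a beta globin gene, was at 4159, 763, 2778 and 10187 in distal libraries, against 1398, 99, 54 and 162 in proximal libraries. Hbb-bs was not called (4.03 ± 1.42, adjusted p = 0.0519 by limma). It was called in some alternative fits, among them table totals (3.89) and a fit of the 8 libraries alone.

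At 21 days 15 of 18 nail and hard keratin genes, 9 of 14 BMP feedback and target genes and 21 of 39 limb mesenchyme genes were higher after distal amputation. Lower were 27 of 40 cell cycle genes and 11 of 22 sterol and fatty acid genes, against 8.22% of all genes called higher and 9.43% called lower. Both shares apply to every list count given below. The lists are not independent: Msx1 and Msx2, both higher, count as BMP targets and as limb mesenchyme genes. Dlx3, also higher, counts in the nail and limb mesenchyme lists. limma called 2656 genes, 17.6% of those tested. Of these, 1237 were higher and 1419 lower after distal amputation, and 261 (1.73%) and 206 (1.37%) differed by over 2-fold. All 4 distal libraries lay above all 4 proximal libraries for 1292 genes (8.58%) and below them for 1541 (10.2%). Scaling each library by its table total moved the median difference of all genes to -0.19, against -0.05 in the values as deposited. It gave 627 higher and 3559 lower genes. Scaling by median-ratio factors moved the counts the other way, to 1579 higher and 1031 lower genes. Without distal replicate 1 the count of lower genes was 931, and without proximal replicate 3 it was 930.

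**Figure D1:**
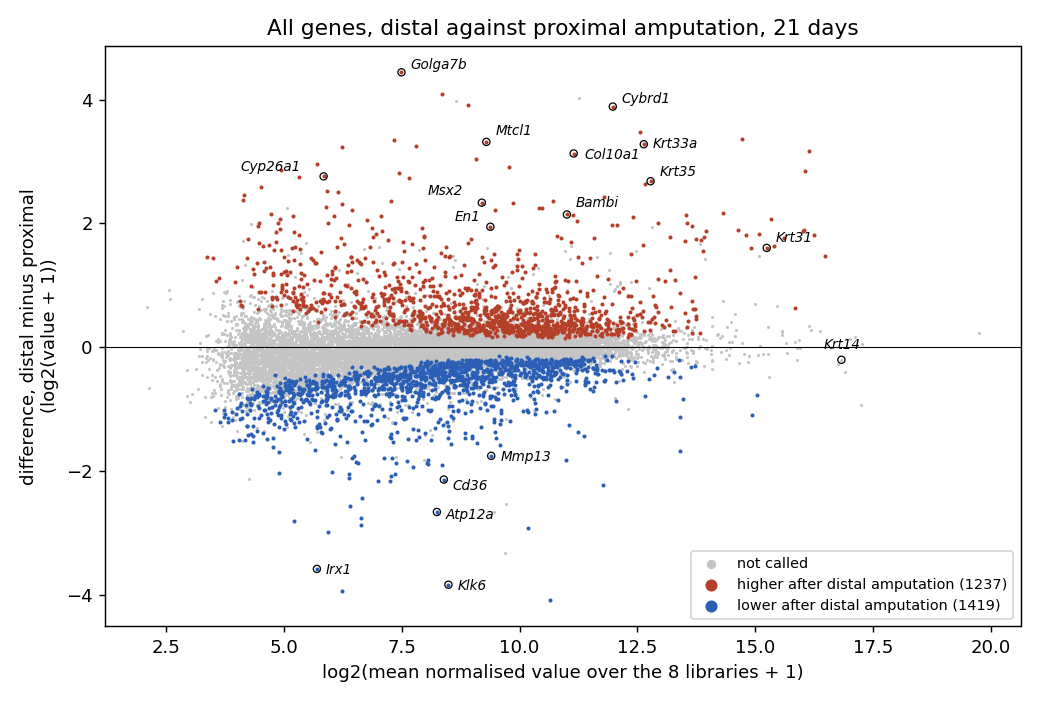
Each point is a gene, with the mean normalised value over the 8 libraries on the horizontal axis (log2) and the distal minus proximal difference at 21 days on the vertical axis (log2(value + 1)). Red points were called higher after distal amputation (1237), blue points lower (1419), and circles mark some of the genes named in the text, among them Golga7b at 4.44 and Klk6 at -3.83.

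The largest rises among called genes with a mean of at least 100 and no overlap between groups were led by Golga7b, a gene related to a palmitoyltransferase subunit (GRCm38 chromosome 19, 42247574 to 42270348). It was at 303, 381, 177 and 489 in distal libraries, against 13, 57, 6 and 7 in proximal libraries, a difference of 4.44 ± 0.70 (adjusted p = 0.000242). Every distal library exceeded the highest proximal library by over 2-fold.

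Cybrd1, which encodes a ferric reductase of the cell membrane (chromosome 2, 71117923 to 71142926), was at 5372, 7822, 4543 and 12592 in distal libraries, against 435, 323, 591 and 598 in proximal libraries (3.89 ± 0.60, adjusted p = 0.000176). Among 15 iron genes it was 1 of 2 called higher, with 3 lower, or 1 lower without distal replicate 3 or proximal replicate 3. The transferrin receptor gene Tfrc fell, at 1364, 1289, 991 and 1651 in distal libraries and 1898, 2000, 1984 and 1579 in proximal libraries (-0.51 ± 0.13, adjusted p = 0.00957). The groups of Tfrc overlapped at a single pair of libraries, distal replicate 4 and proximal replicate 4.

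Mtcl1, a microtubule crosslinking factor gene (chromosome 17, 66336982 to 66449750), was nearly constant within groups, at 1183, 1149, 1093 and 1134 in distal libraries, against 102, 104, 112 and 139 in proximal libraries (3.32 ± 0.21, adjusted p = 3.69e-09). Creg2, a secreted glycoprotein gene, rose by 3.35 ± 0.34, F5, coagulation factor V, by 3.25 ± 0.26, and Efhd1, a calcium-binding protein of mitochondria, by 3.03 ± 0.39. Nrcam, a neuronal cell adhesion gene, rose by 2.82 ± 0.57 and Cryba4, a beta crystallin gene, by 2.73 ± 0.36. Gm37797, a predicted gene with no role given here, rose by 3.36 ± 0.44. The other members of the 15 largest rises were the keratin and collagen genes described below.

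By the same measure, among genes without overlap and with a mean of at least 100, the largest fall was that of Klk6, a secreted serine protease of the kallikrein family (chromosome 7, 43824499 to 43832030). Its level was 36, 36, 19 and 25 in distal libraries, against 269, 766, 1630 and 86 in proximal libraries (-3.83 ± 0.85, adjusted p = 0.00394). The distal libraries were uniformly low, and the proximal ones spanned a wide range. Atp12a, a proton and potassium pump of epithelia, was at 100, 50, 97 and 33 in distal libraries, against 308, 738, 970 and 122 in proximal libraries (-2.66 ± 0.53, adjusted p = 0.00195). Of 11 genes of a list of kallikreins and an inhibitor of them, 1 was lower, near the 9.43% of all genes, and 0 higher. Their median difference was -0.54. The number lower was 7 with table totals, 3 without proximal replicate 4 and 2 without distal replicate 2 or 4.

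Skint1 and Skint3, genes of a family that in mice selects and maintains epidermal T cells, fell, Skint1 (-1.88 ± 0.37) and Skint3 (-1.92 ± 0.48) alike. Pou3f1, a transcription factor of differentiating keratinocytes, was at 31, 108, 45 and 64 in distal libraries, against 247, 203, 204 and 320 in proximal libraries (-2.08 ± 0.40, adjusted p = 0.00139). Sgpp2, a sphingosine phosphate phosphatase (-2.16 ± 0.37), Adtrp, a fatty acid ester hydrolase (-1.78 ± 0.34), Slc16a14, a monocarboxylate transporter family gene (-1.82 ± 0.28), and Cd36, a fatty acid receptor (-2.13 ± 0.58), were also lower. So were Matn4, a matrilin (-2.44 ± 0.54), and Egr2, an early response transcription factor also used by Schwann cells (-1.86 ± 0.37).

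The remaining 4 large falls lost their calls in some alternative fits. Il33, an epithelial alarm cytokine, stood at 838 in proximal replicate 2 and at 140 to 152 in the other proximal libraries, against 43 to 96 in distal libraries. Its difference was -1.83 ± 0.51, and its call was lost without that library (-1.21) or without distal replicate 3 (-1.64). Mmp3 (-2.05 ± 0.57), stromelysin-1, likewise was not called without proximal replicate 2 (-1.37), without distal replicate 3 (-1.75) or in a fit of these 8 libraries alone. Rdh1, a retinol dehydrogenase (-1.87 ± 0.50), was not called without distal replicate 1 (-1.44). Tchh, trichohyalin of the inner hair root sheath (-1.91 ± 0.45), was not called in a fit of the 8 libraries alone, and it reached 1494 in proximal replicate 2, against 126 to 364 in the other proximal libraries.

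Genes of the nail plate and hair shaft were raised as a group. Of 18 measured nail and hard keratin genes, 15 were higher and 1, Tchh, was lower, against 8.22% and 9.43% of all genes, with a median of 1.68. Of the 12 hard keratins, the structural proteins of nail and hair, 10 rose and 12 had a positive difference. The number called was 7 without distal replicate 1 or 4 or proximal replicate 3, and 6 without proximal replicate 2. Their summed level was 481377 to 1292366 in distal libraries, against 136945 to 375659 in proximal libraries. Hard keratin genes resemble each other in sequence, so reads could be split between them.

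Krt33a, a type I hair keratin (chromosome 11, 100011195 to 100016212), was at 7777, 11274, 6003 and 21533 in distal libraries, against 1031, 1205, 739 and 1382 in proximal libraries (3.28 ± 0.71, adjusted p = 0.00331). Krt35 was at 9365, 12266, 3765 and 24172 in distal libraries, against 1547, 872, 2302 and 1979 in proximal libraries (2.68 ± 0.71, adjusted p = 0.0122). Krt31 was at 51524, 47099, 33842 and 103771 in distal libraries, against 22306, 9866, 20280 and 22251 in proximal libraries (1.61 ± 0.41, adjusted p = 0.0103). In all 3 genes distal replicate 4 was the highest and distal replicate 3 the lowest of the distal libraries, and no distal library overlapped a proximal one. The other 2 hard keratins were not called: Krt36 differed by 0.27 ± 0.44 and Krt84 by 0.07 ± 0.55, with overlapping groups.

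Transcription factors of the nail and hair matrix also rose. Foxn1, mutated in nude mice, was at 2583, 1584, 1893 and 3400 in distal libraries, against 1433, 689, 1007 and 1361 in proximal libraries (1.07 ± 0.26, adjusted p = 0.0085). Dlx3 rose by 0.96 ± 0.18 and Cux1 by 0.73 ± 0.12, both without overlap. Hoxc13, a direct regulator of hair keratin genes, was just inside the threshold (0.65 ± 0.22, adjusted p = 0.0487). Its call was lost without distal replicate 1 (0.69), 2 (0.69) or 4 (0.43) or proximal replicate 1 (0.69), 2 (0.46) or 4 (0.71), with table totals (0.51), in a fit with the replicate number as a block, with the lowest-spread direction as a covariate and in a fit of the 8 libraries alone.

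Keratin-associated proteins crosslink hard keratins. Of 38 measured genes 18 were higher, 1 was lower and 36 had a positive difference, with a median of 1.56. Krtap16-3 was at 4058, 10330, 3298 and 27195 in distal libraries, against 1472, 386, 660 and 646 in proximal libraries (3.48 ± 0.78, adjusted p = 0.00422). Krtap3-2 rose by 2.25 ± 0.49 and Krtap11-1 by 2.16 ± 0.50. The count of higher members depended on single libraries, with 8 without distal replicate 4 and 7 without proximal replicate 2 or 3.

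**Figure D2:**
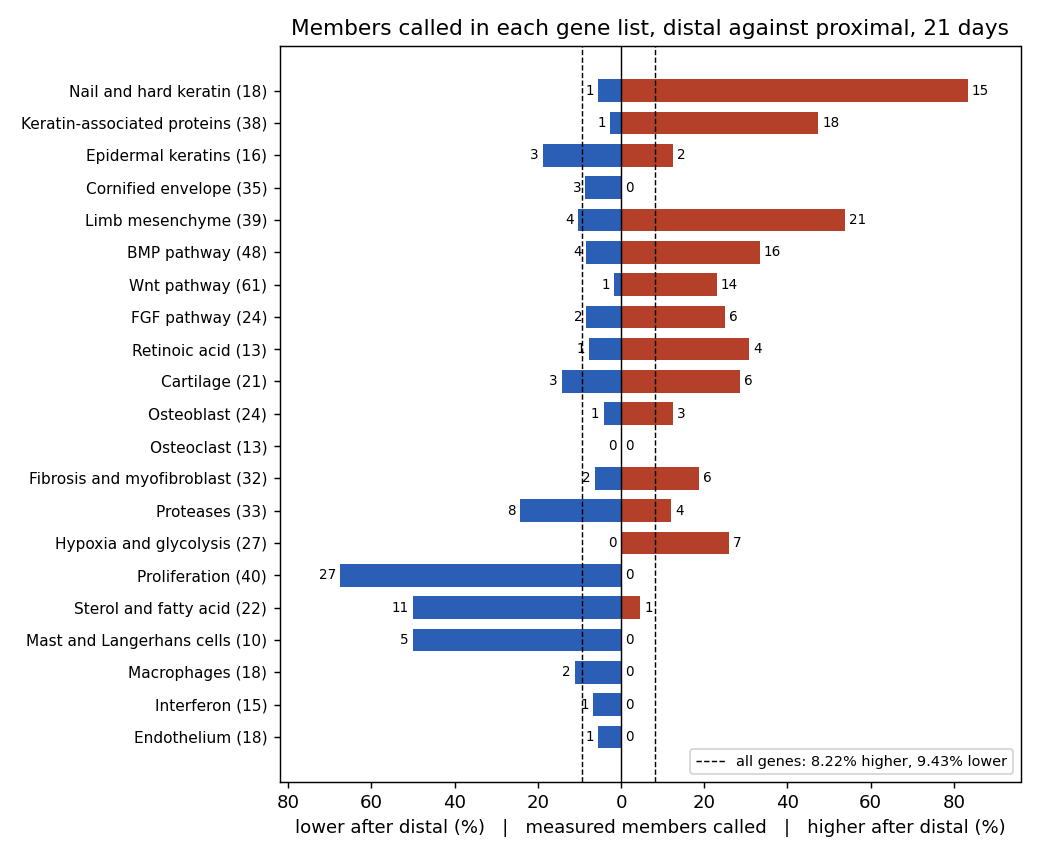
Bars give, for 21 gene lists, the percentage of measured members called higher (red, right) or lower (blue, left) after distal amputation at 21 days, with the number of members measured in brackets and the number called beside each bar. Dashed lines mark the share of all genes, 8.22% higher and 9.43% lower. Nail and hard keratin (15 of 18 higher) and proliferation genes (27 of 40 lower) lie farthest from these lines among the lists drawn.

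Keratins of the epidermis itself did not move together. Of 16 measured genes 2 were higher and 3 lower, with a median of 0.04 that was -0.10 with table totals. The count of lower members was 0 without distal replicate 1 or proximal replicate 3, and 1 without distal replicate 2 or proximal replicate 2. The 2 that rose were Krt90 and Krt42, a pair listed with keratins of nail bed and wound. Krt90 was at 149570, 95306, 84875 and 187866 in distal libraries, against 16687, 12439, 7393 and 22431 in proximal libraries (3.17 ± 0.34, adjusted p = 3.16e-06). Krt42 was at 153455, 72549, 71896 and 180212 in distal libraries, against 18682, 12922, 8909 and 24429 in proximal libraries (2.86 ± 0.40, adjusted p = 6.64e-05). For both genes the lowest distal library lay far above the highest proximal library.

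The basal keratin gene Krt14 differed by -0.20 ± 0.22 and the suprabasal gene Krt10 by -0.39 ± 0.34, and neither was called. Krt5, the basal partner of Krt14, was lower (-0.77 ± 0.23), a call lost without distal replicate 1 (-0.61) or proximal replicate 3 (-0.69). Krt17, a keratin of wounded epidermis and hair sheath, was also lower (-1.10 ± 0.37), and its call was lost without distal replicate 1 (-1.09), 2 (-1.03) or 3 (-1.05), proximal replicate 2 (-0.97) or 3 (-0.78), with the replicate block, with that covariate and in a fit of the 8 libraries alone. The groups of Lor (-0.19 ± 0.36) and Flg (-0.20 ± 0.36), proteins of the cornified layer, overlapped. Of 35 cornified envelope genes 3 were lower, near the 9.43% of all genes, and 0 higher. Only 1 was lower without distal replicate 1 or proximal replicate 1 or 4. Sprr2d, a small proline-rich protein of barrier repair, was at 8, 27, 13 and 16 in distal libraries, against 164, 462, 45 and 47 in proximal libraries (-2.86 ± 0.69, adjusted p = 0.00687). Itga6, an integrin that anchors basal keratinocytes, rose (0.62 ± 0.16). The 3 measured basal keratin genes did not follow it: all 3 had negative differences, and 1, Krt5, was called lower.

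BMP ligands bind paired receptors that activate Smad transcription factors, and the pathway switches on its own brakes, among them Smad6, Smad7 and Bambi. Of 48 measured BMP pathway genes 16 were higher and 4 lower, with a median of 0.13 that was -0.01 with table totals, where 11 were higher and 7 lower. The rises lay among ligands (5 of 10 higher, 0 lower) and feedback and target genes (9 of 14 higher, 0 lower, median 0.72). Receptors and transducers had 1 higher and 1 lower of 11, and secreted inhibitors 1 higher and 3 lower of 13.

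Among the ligands, Bmp8a was at 213, 481, 243 and 353 in distal libraries, against 101, 76, 108 and 103 in proximal libraries (1.66 ± 0.31, adjusted p = 0.000943). Bmp4, a ligand of the digit mesenchyme, was at 229, 242, 192 and 226 in distal libraries, against 152, 131, 175 and 138 in proximal libraries (0.58 ± 0.13, adjusted p = 0.00417). Bmp2, the ligand known to induce bone formation in amputated digits of neonatal mice, rose by 0.47 ± 0.12, with no overlap between groups, and was not called with table totals (0.33). The receptor gene Bmpr1a differed by -0.07 ± 0.08 and was not called, and the transducer gene Smad1 fell (-0.28 ± 0.07).

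The raised targets included brakes and effectors of the pathway. Bambi, a decoy receptor, was at 3130, 3615, 2766 and 3857 in distal libraries, against 686, 594, 750 and 1026 in proximal libraries (2.15 ± 0.18, adjusted p = 1.03e-07). Smad6, an inhibitory Smad, was at 702, 830, 811 and 792 in distal libraries, against 331, 307, 370 and 367 in proximal libraries (1.19 ± 0.10, adjusted p = 1.52e-07). The lowest distal library lay well above the highest proximal library in both genes, at 2766 against 1026 for Bambi and 702 against 370 for Smad6. Id2, an inhibitor of basic helix-loop-helix factors, was at 758, 714, 650 and 726 in distal libraries, against 364, 343, 430 and 508 in proximal libraries (0.81 ± 0.11, adjusted p = 7.41e-05). Id1, the classical BMP target, rose by 0.81 ± 0.18 and Smad7 by 0.64 ± 0.11.

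Of the secreted inhibitors, Sostdc1 (-1.16 ± 0.28), which blocks BMP and Wnt ligands, and Nbl1 (-0.49 ± 0.12) fell. Noggin, Nog, was at 90, 87, 89 and 94 in distal libraries, against 77, 52, 56 and 66 in proximal libraries (0.53 ± 0.18, adjusted p = 0.0469). The call of Nog was lost when any library but proximal replicate 1 was left out (0.45 to 0.56), with table totals (0.39), with the replicate block and with the lowest-spread direction as a covariate. Hard keratin genes were higher in the same distal libraries as the BMP targets, at the summed levels given above, and their part in these differences was not tested.

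Promoter windows are shown only for BMP targets called higher, so the shared direction of these genes follows from that choice. Smad complexes are known to bind the palindrome GTCTAGAC and GC-rich sites such as GGCGCC. RefSeq windows run from 250 bases before to 50 after the start, on GRCm38.p6, and both strands were searched. Of the 9 raised targets 5 had a window used here, 5 windows in all. GTCTAGAC occurred in 1 of the 5, that of Smad6 (chr9:64022010-64022309, minus strand), and in 0.213% of 32851 windows of all genes. GGCGCC occurred in 2 of the 5, Id2 (chr12:25096043-25096342, minus strand) and Smurf2, and in 11.9% of all windows. The homeobox motif TAATTA occurred in 1 of the 5, outside the windows shown, and in 5.29% of all windows. Smurf2, a ubiquitin ligase of the pathway, was called higher (0.32) but not with table totals (0.17). Capitals mark the matches.
Smad6: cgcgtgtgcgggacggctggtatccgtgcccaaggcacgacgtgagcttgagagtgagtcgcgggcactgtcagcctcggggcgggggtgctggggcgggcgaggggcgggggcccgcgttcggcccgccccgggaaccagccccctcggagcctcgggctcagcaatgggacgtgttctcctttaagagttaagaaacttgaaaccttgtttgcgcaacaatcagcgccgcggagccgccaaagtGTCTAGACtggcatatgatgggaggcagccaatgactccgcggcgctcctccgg
Id2: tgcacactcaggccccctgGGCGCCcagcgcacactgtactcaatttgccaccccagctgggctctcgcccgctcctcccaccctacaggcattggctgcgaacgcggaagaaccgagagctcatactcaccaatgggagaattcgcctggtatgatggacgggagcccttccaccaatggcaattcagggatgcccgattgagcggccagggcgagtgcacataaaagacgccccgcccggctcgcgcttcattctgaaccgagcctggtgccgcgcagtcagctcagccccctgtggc

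**Figure D3:**
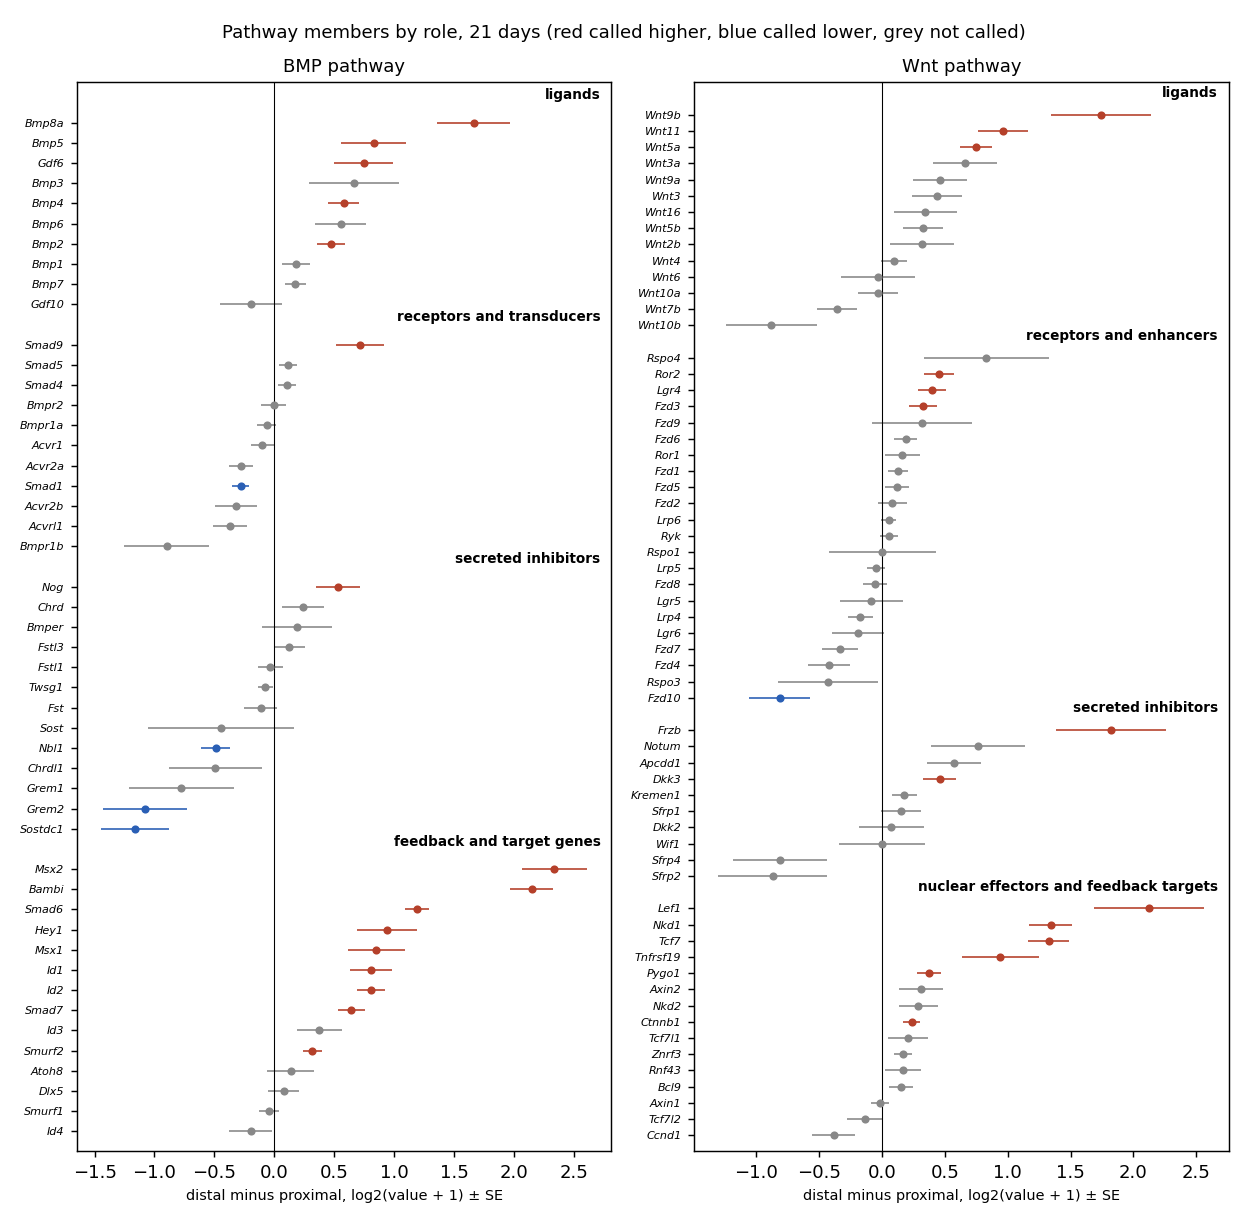
Points give the distal minus proximal difference at 21 days (log2(value + 1)) with its standard error for each measured gene of the BMP (left) and Wnt (right) pathways, ordered by role; red was called higher, blue lower and grey not called. In the BMP panel 9 of 14 feedback and target genes and 5 of 10 ligands are red, while 3 of 13 secreted inhibitors are blue.

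Wnt ligands act through Frizzled receptors and, in the canonical branch, through beta-catenin with Lef1 and Tcf7. Of 61 measured Wnt genes 14 were higher and 1 lower, with a median of 0.17. With table totals the counts were 7 and 6 and the median 0.03. Ligands had 3 higher of 14, receptors and enhancers 3 higher and 1 lower of 22, secreted inhibitors 2 higher of 10, and nuclear effectors and feedback targets 6 higher of 15.

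The ligand gene Wnt5a, of the noncanonical branch and of distal limb outgrowth, was at 1303, 1237, 1491 and 1518 in distal libraries, against 999, 909, 703 and 717 in proximal libraries (0.75 ± 0.13, adjusted p = 0.000408). Wnt11 rose by 0.96 ± 0.20 and Wnt9b, with values of 23 to 34 in distal and 2 to 14 in proximal libraries, by 1.74 ± 0.40. The secreted inhibitor gene Frzb rose by 1.82 ± 0.44. None of these 4 genes overlapped between groups.

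Tcf7 was at 1140, 949, 975 and 1025 in distal libraries, against 468, 353, 403 and 410 in proximal libraries (1.32 ± 0.16, adjusted p = 2e-05). Lef1 was at 209, 237, 137 and 282 in distal libraries, against 48, 40, 57 and 45 in proximal libraries (2.13 ± 0.44, adjusted p = 0.00229). Nkd1, a feedback inhibitor, was at 337, 336, 318 and 286 in distal libraries, against 156, 107, 135 and 108 in proximal libraries (1.34 ± 0.17, adjusted p = 2.6e-05). The distal libraries of all 3 genes lay above every proximal library. Axin2, the most used reporter of canonical signalling, was at 400, 327, 364 and 383 in distal libraries and 252, 313, 322 and 302 in proximal libraries, and was not called (0.31 ± 0.18, adjusted p = 0.234). Its groups did not overlap, but the gap between 327 and 322 was small. The Lef1 and Tcf7 motif CTTTGA, searched on both strands, occurred in 2 of 12 RefSeq windows of the 6 raised effectors and targets and in 5257 of 32851 windows of all genes.

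In hedgehog signalling, with 2 higher and 0 lower of 12 genes, the receptor and target gene Ptch1 was higher (0.44 ± 0.14). That call was lost without distal replicate 1 (0.36) or 3 (0.39) or proximal replicate 1 (0.43), 2 (0.40) or 3 (0.46), and with table totals (0.30), where 0 members were called. Without any of those 5 libraries 1 member was called higher. The effector gene Gli1 was not called (0.17 ± 0.26). Of 24 FGF genes 6 were higher and 2 lower, or 3 and 4 with table totals. Fgf10, the limb mesenchyme ligand, was at 98, 142, 80 and 186 in distal libraries, against 37, 39, 57 and 41 in proximal libraries (1.46 ± 0.25, adjusted p = 0.000442). Fgf18, a ligand of bone and cartilage growth, rose by 1.86 ± 0.42 and Fgf9 by 1.63 ± 0.42, both at values under 100. The FGF carrier protein gene Fgfbp1 was at 929, 1484, 940 and 1585 in distal libraries, against 2536, 4723, 2983 and 1884 in proximal libraries (-1.26 ± 0.26, adjusted p = 0.00272).

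Of 13 retinoic acid genes 4 were higher and 1 lower, with 0 lower without proximal replicate 3 and 2 without distal replicate 3. Cyp26a1, which degrades retinoic acid, was at 105, 109, 76 and 99 in distal libraries, against 21, 5, 22 and 13 in proximal libraries (2.76 ± 0.42, adjusted p = 0.000159). Rdh10, the enzyme of its first step, was at 2028, 1795, 1887 and 2126 in distal libraries, against 1448, 1190, 1285 and 1252 in proximal libraries (0.60 ± 0.09, adjusted p = 8.39e-05). Aldh1a2, which makes retinoic acid from retinal, rose by 0.78 ± 0.20. All 3 genes were separated between groups.

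Transcription factors that pattern the limb were the second group to rise broadly. Of 39 measured limb mesenchyme genes 21 were higher and 4 lower, with a median of 0.55. The Msx and Dlx homeobox genes had 6 higher of 8, posterior Hox genes 5 higher and 2 lower of 10, and other factors 10 higher and 2 lower of 21. The count of lower members was 1 to 2 without distal replicate 1 or proximal replicate 2 or 3.

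Msx2 (chromosome 13, 53466884 to 53473074), a homeobox gene of nail, bone and distal limb, was at 952, 958, 661 and 1356 in distal libraries, against 182, 172, 156 and 253 in proximal libraries (2.34 ± 0.27, adjusted p = 7.92e-06). Msx1, which mouse digit tips need to regrow at the fetal stage, was at 506, 514, 522 and 646 in distal libraries, against 357, 219, 273 and 385 in proximal libraries (0.85 ± 0.23, adjusted p = 0.0156). The call of Msx1 was lost without proximal replicate 2 (0.70). Dlx6 was at 193, 227, 233 and 267 in distal libraries, against 99, 67, 94 and 99 in proximal libraries (1.36 ± 0.15, adjusted p = 3.32e-06).

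En1, which marks ventral limb ectoderm and some dermal fibroblasts, was at 1102, 732, 1300 and 1071 in distal libraries, against 233, 293, 178 and 413 in proximal libraries (1.95 ± 0.20, adjusted p = 1.48e-06). Tbx18 was at 733, 914, 757 and 687 in distal libraries, against 226, 179, 241 and 275 in proximal libraries (1.75 ± 0.21, adjusted p = 1.01e-05). Zic2 was at 70, 63, 29 and 110 in distal libraries, against 6, 7, 6 and 18 in proximal libraries (2.75 ± 0.36, adjusted p = 3.62e-05). No distal library of these 3 genes reached down to a proximal value.

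Hox genes moved in both directions. Hoxa10, of the middle limb, rose (0.59 ± 0.09), and Hoxa13 (0.65 ± 0.21) and Hoxd13 (0.78 ± 0.23), of the digits, were higher with calls that single libraries ended: distal replicate 1 (0.58 and 0.59), distal replicate 4 (0.60 and 0.72) and proximal replicate 2 (0.69 and 0.63) for both, and proximal replicate 3 (0.52) for Hoxa13. Hoxa13 was also not called with table totals (0.51), and Hoxd13 not in a fit of the 8 libraries alone. Hoxd9, an upper limb gene, was at 27, 21, 20 and 28 in distal libraries, against 38, 50, 38 and 32 in proximal libraries (-0.69 ± 0.18, adjusted p = 0.0123). Hoxc9 was also lower (-0.54 ± 0.16), but not without distal replicate 1 (-0.45) or proximal replicate 2 (-0.43) or 3 (-0.53) or in that smaller fit.

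The Iroquois homeobox genes, a family grouped after its values were seen, went the other way: all 5 measured members were lower. Irx1 (chromosome 13, 71957921 to 71963723) was at 3, 1, 23 and 16 in distal libraries, against 83, 80, 124 and 77 in proximal libraries (-3.58 ± 0.53, adjusted p = 0.000142). Irx5 was at 105, 128, 193 and 123 in distal libraries, against 207, 665, 332 and 448 in proximal libraries (-1.49 ± 0.26, adjusted p = 0.0005). Irx2 (-1.32 ± 0.23) and Irx4 (-1.03 ± 0.20) also fell. Irx3 (-0.77 ± 0.25) was not called without distal replicate 1 (-0.56) or 4 (-0.75) or proximal replicate 2 (-0.59), 3 (-0.75) or 4 (-0.77), or in a fit of the 8 libraries alone. Irx1, Irx2 and Irx4 lie in 1 genomic cluster and Irx3 and Irx5 in another, so the 5 are not independent.

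**Figure D4:**
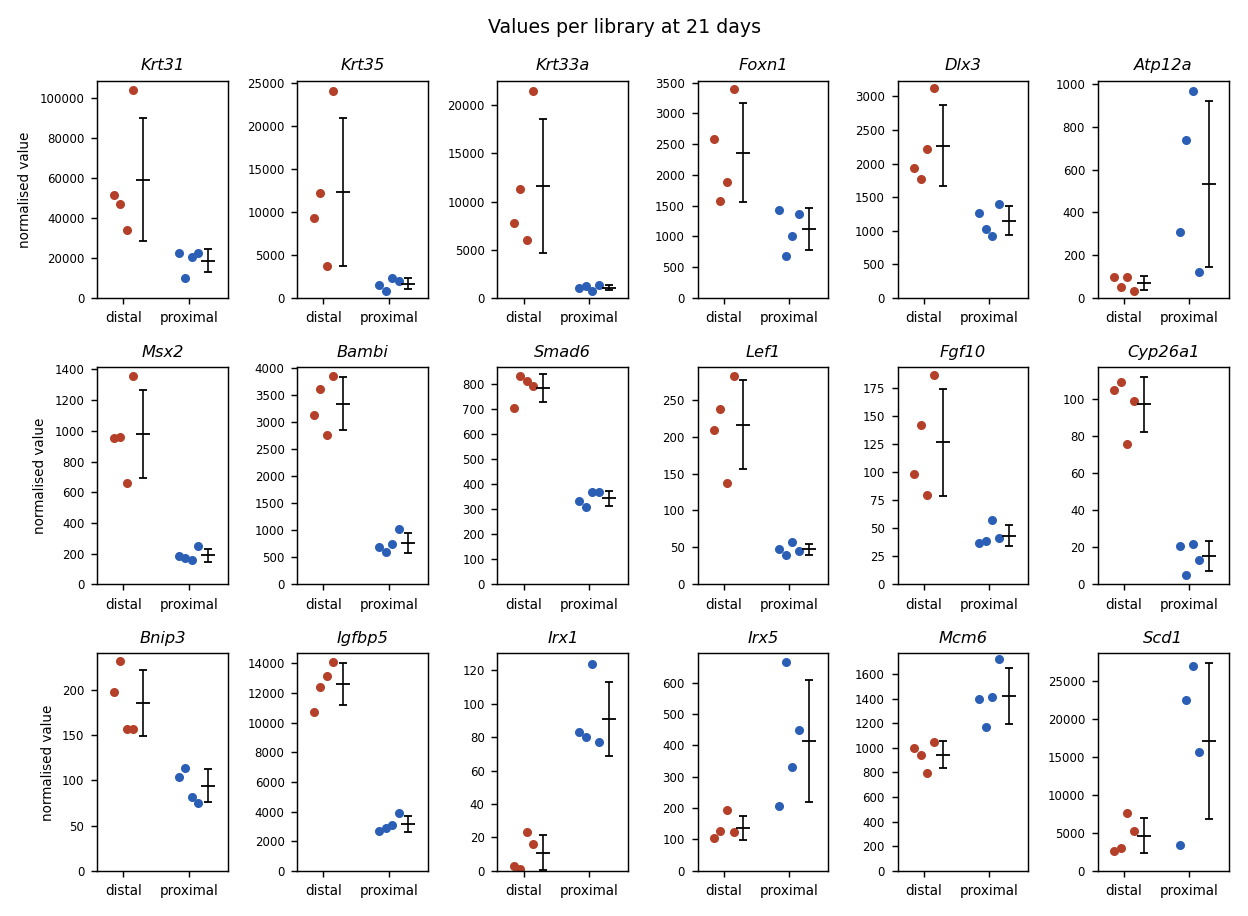
Each panel shows a gene's normalised value in the 4 distal (red, left) and 4 proximal (blue, right) libraries at 21 days on a linear axis from 0, with the mean and SD as a black bar beside the points. Distal values lie above all proximal values for Msx2, Smad6 and Igfbp5, among others, and below them for Irx1, while for Scd1 proximal replicate 1 (3385) sits among the distal libraries.

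Of 24 osteoblast genes 3 were higher and 1 lower, near the shares over all genes (8.22% and 9.43%), with a median of 0.27, and with table totals 1 was higher. The osteoblast transcription factor genes Runx2 (0.46 ± 0.25) and Sp7 (0.47 ± 0.48) were not called. Cdh11, osteoblast cadherin, was at 2562, 2096, 2073 and 2547 in distal libraries, against 1496, 1093, 1114 and 1512 in proximal libraries (0.84 ± 0.15, adjusted p = 0.000755). Bglap, osteocalcin, was not called (-0.94 ± 0.85), and its relative Bglap3 was lower (-1.47 ± 0.37); these genes are near copies, so their reads can be confused. Of 13 osteoclast genes 0 were called, among them Acp5 (-0.21 ± 0.48), Ctsk (-0.23 ± 0.44) and Mmp9 (-0.77 ± 0.63). Mmp9 was at 2789 in distal replicate 4, against 589 to 798 in the other distal libraries.

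Cartilage genes split. Col10a1, a collagen that hypertrophic chondrocytes make (chromosome 10, 34389981 to 34397085), was at 4762, 2091, 6507 and 2526 in distal libraries, against 535, 196, 196 and 1340 in proximal libraries (3.13 ± 0.65, adjusted p = 0.00254). Hapln1, the link protein of cartilage matrix, was at 278, 182, 179 and 174 in distal libraries, against 86, 24, 34 and 112 in proximal libraries (1.89 ± 0.44, adjusted p = 0.00559). Both genes were separated between groups. Mmp13, a collagenase of hypertrophic cartilage and bone, fell, at 323, 210, 168 and 586 in distal libraries, against 863, 1631, 638 and 968 in proximal libraries (-1.75 ± 0.44, adjusted p = 0.00918). Col2a1 (-0.61 ± 0.74), the main cartilage collagen, Acan (0.96 ± 0.43) and Sox9 (0.06 ± 0.24) were not called. Acan stood at 2302 in distal replicate 1, against 729 to 996 in the other distal libraries, and it was called when proximal replicate 4 was left out (1.30). Of 21 cartilage genes 6 were higher and 3 lower, with 2 higher without distal replicate 1 or 3 or proximal replicate 2 or 3 and 3 without distal replicate 4.

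Of 19 tendon genes 2 were higher and 1 lower, against 8.22% and 9.43% of all genes. Their median was -0.05, and with table totals 5 were lower. The lower gene, the cartilage layer protein gene Cilp (-1.15 ± 0.40), lost its call with the replicate block, with the lowest-spread direction as a covariate and without any single library other than proximal replicate 2. Without that library 2 tendon genes were lower. The transcription factor gene Scx was at 253, 254, 267 and 235 in distal libraries, against 103, 109, 112 and 137 in proximal libraries (1.13 ± 0.10, adjusted p = 3.05e-07), and its groups did not overlap. The proteoglycan gene Lum rose by 1.11 ± 0.20. The mature tendon gene Tnmd was not called (-0.38 ± 0.37).

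Of 32 fibrosis and myofibroblast genes 6 were higher and 2 lower, with a median of 0.16 and 26 positive differences. Lrrc15, a membrane protein of matrix-producing fibroblasts, was at 60231, 112344, 89517 and 156126 in distal libraries, against 38485, 18914, 23665 and 29973 in proximal libraries (1.88 ± 0.34, adjusted p = 0.000742). Loxl3, a collagen crosslinking oxidase, rose by 0.83 ± 0.15, Thbs1, thrombospondin-1, by 0.83 ± 0.20, Inhba, a subunit of activin, by 0.96 ± 0.24 and Col5a2 by 0.62 ± 0.12. Postn (-0.25 ± 0.23) and the myofibroblast actin gene Acta2 (-0.25 ± 0.22) were not called. Adam12 was lower (-0.97 ± 0.26), though not without proximal replicate 2 (-0.76).

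Of 15 genes of the insulin-like growth factor pathway 3 were higher and 1 lower, with a median of 0.11. The lower gene, the RNA-binding protein gene Igf2bp2 (-0.73 ± 0.20), lost its call without distal replicate 2 or proximal replicate 2, and 2 were lower without proximal replicate 4 and 3 with table totals. Igfbp5, which binds insulin-like growth factors in bone and mesenchyme (chromosome 1, 72857932 to 72874884), was at 10735, 12410, 13158 and 14089 in distal libraries, against 2701, 2868, 3071 and 3935 in proximal libraries (2.01 ± 0.15, adjusted p = 1.92e-08). Pappa2, a protease that cleaves Igfbp5, was at 175, 238, 69 and 218 in distal libraries, against 43, 28, 56 and 29 in proximal libraries (2.05 ± 0.51, adjusted p = 0.00883). Igfbp7 rose by 0.89 ± 0.11. The genes of the type IV collagen chains, Col4a1 and Col4a2, named after their values were seen, each rose by 1.07 ± 0.14. They share a promoter region and are not independent.

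Of 33 extracellular protease and inhibitor genes 4 were higher and 8 lower. Mmp12, macrophage elastase, was at 4, 2, 15 and 4 in distal libraries, against 49, 137, 26 and 358 in proximal libraries (-3.94 ± 0.84, adjusted p = 0.00294). Adamts20, a secreted protease known in mice for its role in pigment cell spread, fell, at 6 to 12 in distal and 17 to 44 in proximal libraries (-1.54 ± 0.33). The inhibitor gene Timp2 rose (0.36 ± 0.09) and was not called with table totals (0.21). The count of lower members was 5 without distal replicate 1 or 2 or proximal replicate 1, and 4 without proximal replicate 2. The count of higher members was 2 without proximal replicate 3.

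Cell cycle genes were lower after distal amputation. Of 40 proliferation genes 27 were lower, 0 were higher and 40 had a negative difference, with a median of -0.52. DNA replication genes had 13 lower of 20 and mitosis genes 14 of 20. Mcm4, of the replicative helicase, was at 559, 540, 531 and 638 in distal libraries, against 846, 757, 770 and 899 in proximal libraries (-0.53 ± 0.10, adjusted p = 0.00102). Mcm6 (-0.59 ± 0.12) and Cdk1, the mitotic kinase (-0.59 ± 0.13), fell. Mki67, the Ki-67 antigen, was at 3093, 3684, 4556 and 4092 in distal libraries, against 5787, 4455, 5204 and 6888 in proximal libraries (-0.53 ± 0.13, adjusted p = 0.0095). The groups of Mki67 overlapped at distal replicate 3 and proximal replicate 2. Cell cycle inhibitor genes did not move together: of 9 measured 2 were higher, 1 was lower and 6 were not called. Cdkn2b rose (0.55 ± 0.13) and Rbl1 fell (-0.35 ± 0.12). The count of lower proliferation genes was 16 without distal replicate 1 and 13 without proximal replicate 4. Every median of the proliferation genes over the 8 leave-one-out fits lay between -0.60 and -0.43.

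A share of hypoxia genes rose. Of 27 hypoxia and glycolysis genes 7 were higher and 0 lower, with a median of 0.24 and 24 positive differences; the hypoxia response genes held 6 of the 7. With table totals 3 were called, and 4 without distal replicate 1. Bnip3, a mitophagy receptor, was at 197, 232, 156 and 157 in distal libraries, against 104, 114, 82 and 75 in proximal libraries (0.98 ± 0.18, adjusted p = 0.00116). Pdk1, which holds pyruvate out of mitochondria, rose by 0.64 ± 0.14 and Ndrg1, a stress response gene, by 0.52 ± 0.10. Vegfa, the vascular growth factor, was higher (0.46 ± 0.12), a call lost without distal replicate 1 (0.39) and with table totals (0.32). Hif1a, the transcription factor of this response, named after its values were seen, was at 11374, 8319, 9307 and 8267 in distal libraries, against 5605, 5668, 4567 and 4935 in proximal libraries (0.84 ± 0.11, adjusted p = 4.68e-05).

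The HIF complex is known to bind ACGTG. Of the 6 raised hypoxia response genes 5 had RefSeq windows, 7 in all, and 4 of the 7 held ACGTG on either strand, against 19.6% of 32851 windows. The 4 were those of Bnip3, the collagen hydroxylase genes P4ha1 and P4ha2, and Vegfa. P4ha1 (0.43) was not called when any 1 distal library was left out (0.42 to 0.45) or without proximal replicate 1 (0.39) or 3 (0.38), and P4ha2 (0.47) not without proximal replicate 3 (0.37). With table totals neither was called, P4ha1 at 0.29 and P4ha2 at 0.32. The Bnip3 window (chr7:138909457-138909756, minus strand) holds 2 matches, 1 on each strand, that overlap as the palindrome in capitals.
Bnip3: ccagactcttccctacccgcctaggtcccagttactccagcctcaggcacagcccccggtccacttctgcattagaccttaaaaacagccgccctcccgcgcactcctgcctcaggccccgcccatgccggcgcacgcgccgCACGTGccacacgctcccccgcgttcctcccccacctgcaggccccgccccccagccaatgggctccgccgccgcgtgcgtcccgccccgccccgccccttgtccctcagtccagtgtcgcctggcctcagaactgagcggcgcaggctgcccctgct

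Lipid synthesis genes were lower in part. Of 22 sterol and fatty acid genes 11 were lower and 1 higher, with a median of -0.41 and 21 negative differences. Srebf2, the master regulator of sterol synthesis, was at 3801, 3246, 3460 and 3533 in distal libraries, against 4462, 4694, 4909 and 4130 in proximal libraries (-0.37 ± 0.07, adjusted p = 0.000957). Fasn, fatty acid synthase, also fell (-0.45 ± 0.09). The count of lower members was 7 without distal replicate 1 or 3 and 6 without proximal replicate 3.

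Genes typical of sebaceous glands, a list chosen after the values were seen, were lower for 7 of 12 and higher for 1, or lower for 4 without proximal replicate 3. Scd1, a desaturase, was at 2626, 3049, 7610 and 5215 in distal libraries, against 3385, 22495, 26982 and 15726 in proximal libraries (-1.67 ± 0.45, adjusted p = 0.0148). Proximal replicate 1 lay among the distal libraries, and the call was lost without distal replicate 1 (-1.44), without proximal replicate 2 (-1.42) or 3 (-1.33) and in a fit of the 8 libraries alone. The same proximal library was low for Elovl6, a fatty acid elongase, at 1079 against 4413 to 12634 in the other proximal libraries, and for Krt79, a keratin of the follicle opening, at 177 against 1655 to 7051. Elovl6 differed by -2.23 ± 0.52, Far2, a fatty alcohol enzyme, by -2.92 ± 0.76, and both were not called in a fit of the 8 libraries alone. Krt79 (-4.08 ± 1.31) was not called without distal replicate 1 (-3.51) or 2 (-2.84) or proximal replicate 2 (-4.04), 3 (-3.35) or 4 (-3.81), or in that fit. Mgst1, a microsomal transferase, was at 284, 353, 486 and 386 in distal libraries, against 687, 1221, 1668 and 1053 in proximal libraries (-1.57 ± 0.18, adjusted p = 6.02e-06), without overlap. Fads2 was the gene that rose (1.37 ± 0.20). Summed sebaceous genes were at 12733 to 20310 in distal libraries and 16016 to 64511 in proximal libraries, and their part in the lower sterol and fatty acid genes was not tested.

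Class II antigen presentation genes fell. H2-Aa, a class II chain, was at 481, 556, 388 and 590 in distal libraries, against 1104, 935, 1001 and 1136 in proximal libraries (-1.06 ± 0.26, adjusted p = 0.00873). Cd74, its invariant chain, was at 722, 899, 698 and 1004 in distal libraries, against 1659, 1607, 1587 and 2091 in proximal libraries (-1.07 ± 0.25, adjusted p = 0.0061). Both genes were separated between groups. Of 10 mast and Langerhans cell genes 5 were lower and 0 higher, and 10 had a negative difference, with counts of 1 to 3 when distal replicate 1 or 3 or any proximal library was left out, and 3 with the replicate block. The 5 were the class II chains H2-Aa, H2-Ab1 and H2-Eb1, the Langerhans cell lectin Cd207 and the adhesion gene Epcam, and no mast cell gene was among them. H2-Aa alone of the 5 kept its call without distal replicate 1. Of 15 interferon and antigen processing genes 1, Ciita, was lower, a call made in none of the fits without distal replicate 1, 3 or 4 or any proximal library, or with the replicate block. All 15 had a negative difference, with a median of -0.50.

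Macrophage genes had 2 lower of 18, Mmp12 and Cd74, near the 9.43% of all genes called lower, with a median of -0.32. Their summed levels were 7067 to 8101 in distal libraries, against 7228 to 10547 in proximal libraries. Adgre1, the F4/80 antigen, was at 82, 48, 59 and 78 in distal libraries and 116, 99, 88 and 115 in proximal libraries and was not called (-0.66 ± 0.28, adjusted p = 0.101), but it was called lower when scaled by table totals (-0.80), or when the 8 libraries were fitted alone. The neutrophil and wound keratinocyte gene S100a8 was at 213, 239, 90 and 56 in distal libraries and 247, 2851, 2830 and 145 in proximal libraries, with proximal replicates 2 and 3 far above the rest, and was not called (-2.52 ± 0.95, adjusted p = 0.0698). It was called without proximal replicate 1 (-3.05) or 4 (-3.30) and with table totals (-2.67). Lcn2, an iron-binding defence protein, was at 13, 7, 3 and 3 in distal libraries, against 18, 142, 86 and 17 in proximal libraries (-2.80 ± 0.55, adjusted p = 0.00168), highest in the same 2 proximal libraries. The chemokine receptor gene Cxcr4 was at 56, 45, 55 and 64 in distal libraries, against 128, 99, 94 and 134 in proximal libraries (-1.03 ± 0.16, adjusted p = 0.000216).

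Endothelial genes had 1 lower of 18, against 9.43% of all genes, with a median of -0.37 and 17 negative differences. With table totals 10 were lower. The count was 0 without distal replicate 1, 2 or 3 or proximal replicate 1, 2 or 3 and 3 without distal replicate 4. Pecam1, which joins endothelial cells, was not called (-0.36 ± 0.17), and was called lower with table totals (-0.51). The Schwann cell gene Sox10 was low in every library, at 12 to 25 in distal and 19 to 25 in proximal libraries. Of 42 axon guidance genes 5 were higher and 5 lower, near the shares over all genes (8.22% and 9.43%). With table totals the counts were 4 and 9. The number lower was 2 without distal replicate 1 and 3 without proximal replicate 3. Unc5b, a netrin receptor also of endothelium, was at 4824, 5062, 3605 and 4211 in distal libraries, against 1676, 1837, 2049 and 2364 in proximal libraries (1.16 ± 0.16, adjusted p = 5.71e-05). Of 7 erythroid genes 3 were higher, with counts of 1 to 6 when single libraries were left out: 1 without distal replicate 1, 3 or 4 or proximal replicate 2, 3 or 4, 5 when distal replicate 2 was left out and 6 when proximal replicate 1 was.

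The difference between amputation levels was also compared between days, with the 21-day libraries shared by both comparisons. Against 12 days, the distal minus proximal difference at 21 days differed for 2234 genes, 14.8% of those tested, 1117 (7.42%) higher and 1117 (7.42%) lower. Against 14 days it differed for 286 genes (1.9%), 151 (1.0%) higher and 135 (0.897%) lower. The count against 14 days ranged from 105 to 460 when single libraries were left out.

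Col10a1 had a negative difference at 12 days (-1.40) and at 14 days (-1.35) and a positive one at 21 days (3.13). It averaged 66.5 ± 23.7 after distal and 228 ± 179 after proximal amputation at 12 days, 101 ± 33.9 and 322 ± 243 at 14 days, and 3972 ± 2056 and 567 ± 540 at 21 days (mean ± SD, n = 4 each). Its difference at 21 days exceeded that at 12 days by 4.53 ± 0.92 (adjusted p = 0.00198) and that at 14 days by 4.48 ± 0.92 (adjusted p = 0.0175). Its high values were those of the distal libraries on the last day. The tests given were of the change between days, not of the earlier negative differences.

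F5 and Csrp2 had their lowest proximal level on the last day. F5 averaged 276 ± 39.8 after distal and 202 ± 75.9 after proximal amputation at 12 days, and 404 ± 98.1 and 42.0 ± 13.5 at 21 days, a change of 2.74 ± 0.37 in the difference (adjusted p = 4.95e-05). Csrp2, a LIM domain protein of contractile and stellate cells, averaged 493 ± 158 and 803 ± 106 at 12 days, and 516 ± 38.7 and 173 ± 52.8 at 21 days, distal before proximal (2.37 ± 0.31, adjusted p = 4.2e-05). For both genes the proximal mean was far lower at 21 than at 12 days. Col8a2, a short-chain collagen (2.77 ± 0.40), the imprinted gene Mest (2.25 ± 0.34) and the matrix gene Fndc1 (2.25 ± 0.26) also gained in the difference.

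Among the 6 named genes whose difference dropped against 12 days were 2 metalloproteinases. Mmp13 averaged 5325 ± 1906 after distal and 2002 ± 1309 after proximal amputation at 12 days, and 322 ± 188 and 1025 ± 427 at 21 days (-3.31 ± 0.62, adjusted p = 0.00106). Mmp3 changed by -4.17 ± 0.81 and Pi15, a secreted protease inhibitor, by -3.47 ± 0.59. All 3 had positive differences at 12 days and negative ones at 21 days. Gm11559 (-3.18 ± 0.98), Krtap9-1 (-3.18 ± 1.04) and Gm11567 (-2.97 ± 0.92) had positive differences on both days, smaller at 21 days, and each of these 3 changes lost its call in at least 8 of the alternative fits.

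Against 14 days, Mtcl1 (1.79 ± 0.30, adjusted p = 0.00715) and Cryba4 (2.47 ± 0.51, adjusted p = 0.0174) gained, and Arhgdib (-1.28 ± 0.18, adjusted p = 0.00443) and Ifitm3 (-1.29 ± 0.21, adjusted p = 0.00578), genes high in blood cells and in interferon responses, dropped. Arhgdib averaged 130 ± 18.6 after distal and 326 ± 8.02 after proximal amputation at 21 days, and 187 ± 16.5 and 196 ± 35.6 at 14 days. Pi15 dropped by 2.78 ± 0.59 on the log2 scale and lost its call when the fit held the 14-day and 21-day libraries alone. The changes of Klk6 (-4.79 ± 1.20), Slc16a14 (-1.51 ± 0.39), Emb (-1.50 ± 0.35), Gm37797 (2.49 ± 0.62), Efhd1 (2.23 ± 0.55) and Creg2 (1.81 ± 0.48) were called with adjusted p of 0.031 to 0.0497, and each lost its call in at least 7 of the alternative fits.

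**Figure D5:**
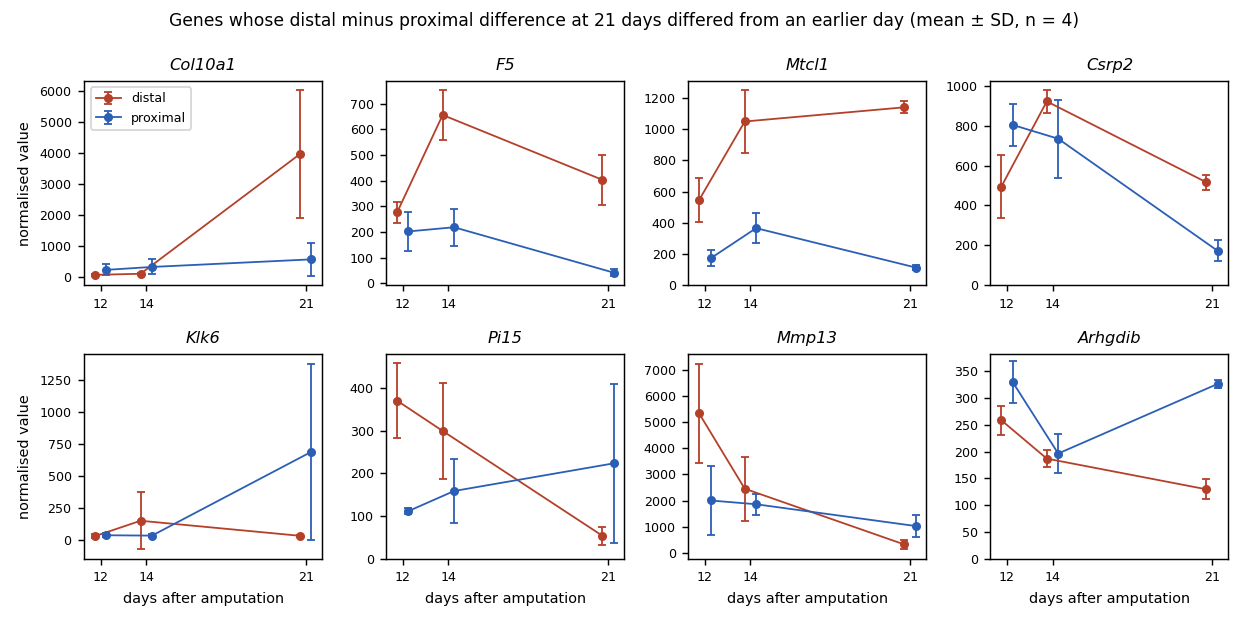
Points are means of 4 libraries with SD at 12, 14 and 21 days, distal in red and proximal in blue, on linear axes of normalised value. Distal Col10a1 stands at 3972 on day 21 after 66.5 and 101, proximal F5 drops to 42.0, and Mmp13 has distal above proximal at 12 days and below it at 21 days.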

How the data were processed

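RNA from 24 digit tip libraries, 6 groups of 4, was sequenced after ribosomal RNA depletion, per the labels. Reads were processed with cutadapt, STAR 2.5.4b and featureCounts 1.6.3 of Subread against mm10, per the submitters' processing notes; strand use in the counting was not stated in those notes, so reads of genes that overlap, or of antisense pairs, may be mixed. The deposited table holds whole numbers for 15055 genes that look normalised and rounded: their upper quartiles nearly coincide, and across 9650 genes above 100 everywhere the libraries varied in their least variable direction by 0.00674 (natural log), where Poisson counts would give 0.0455. The deposited values were therefore treated as a score rather than as counts, and the depth is unknown, so no counting interval is given. If that low-spread pattern lies within groups, which is not shown here, it may make p-values too small.

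limma 3.58.1 (R 4.3.3) was fitted to log2(value + 1) with 6 group means and a mean-variance trend, and p-values were Benjamini-Hochberg adjusted over all genes. No low-value filter was used; the lowest of the genes' highest values was 20. Data were simulated for distal 21 against proximal 21 (15055 genes, 5 draws, 200 changed genes), with normal noise independent between genes and libraries. In them 84.4% of 2-fold and 97% of 4-fold changes were called, and 5.09% of calls were false. The simulation left out correlated genes and the low-spread pattern, so it cannot give the share of false calls in the deposited values. Score columns with no sample numbered 0. Coordinates were joined by symbol from GENCODE M21 (GRCm38) for 14699 genes.

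The members and gene lists were chosen with earlier results of these data known. Named genes are the 15 largest rises and falls among called, non-overlapping genes with a mean of at least 100, genes from among the up to 6 called members of each list with the smallest adjusted p, a panel of markers named whether called or not, and the 6 largest differences between days each way. The sebaceous and Iroquois lists, Hif1a, Col4a1, Col4a2, the list members named beyond these and the genes with promoter matches were chosen after their values were seen. Some genes that fall under these rules are not reported here. Replicate numbers were not taken to pair the libraries: deviations of same-numbered distal and proximal libraries correlated at 0.053, -0.045, 0.022 and 0.186. Alternatives changed the scaling, filter, pseudocount, libraries fitted, block and weights, or left out single libraries.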

Additional observations from a re-analysis of the deposited data

Results flagged for a closer look

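By a gap test, single libraries stood apart from the other 3 of their group in 27 of the named genes. The test flags about 1 in 20 groups by chance. It was run on the distal and the proximal group of all 182 named genes, so many of these flags could arise by chance. The library that stood apart is given first, with the range of the other 3 after it.

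Among distal libraries, replicate 4 stood apart for Krtap3-2 (4565, against 1442 to 1539), Msx1 (646, against 506 to 522), Irx4 (848, against 650 to 656), Mmp9 (2789, against 589 to 798), Cdk1 (439, against 338 to 344) and Col8a2 (2139, against 1291 to 1384). Replicate 1 stood apart for Creg2 (401, against 251 to 256), Acan (2302, against 729 to 996) and Hapln1 (278, against 174 to 182). Replicate 3 stood apart for Prrx1 (1295, against 1578 to 1621) and Mmp12 (15, against 2 to 4), and replicate 2 for Arhgdib (157, against 116 to 123).

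Among proximal libraries, replicate 2 stood apart for Golga7b (57, against 6 to 13), Efhd1 (155, against 99 to 106), Mmp3 (752, against 89 to 172), Il33 (838, against 140 to 152), Krt31 (9866, against 20280 to 22306), Dlx6 (67, against 94 to 99) and Ifitm3 (877, against 595 to 610). Replicate 3 stood apart for Krt14 (156060, against 111817 to 117230), Hoxa13 (60, against 85 to 88), Irx1 (124, against 77 to 83) and Inhba (215, against 353 to 376). Replicate 4 stood apart for Zic2 (18, against 6 to 7) and Cd74 (2091, against 1587 to 1659), and replicate 1 for Hbb-bs (1398, against 54 to 162) and Smurf2 (1227, against 1411 to 1443).

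The distal minus proximal difference changed between days by the limma test of the difference itself, on the log2(value + 1) scale. At 21 against 12 days it was lower for Mmp3 (-4.17), Pi15 (-3.47), Mmp13 (-3.31), Gm11559 (-3.18), Krtap9-1 (-3.18) and Gm11567 (-2.97), and higher for Col10a1 (4.53), Col8a2 (2.77), F5 (2.74), Csrp2 (2.37), Mest (2.25) and Fndc1 (2.25). At 21 against 14 days it was lower for Klk6 (-4.79), Pi15 (-2.78), Slc16a14 (-1.51), Emb (-1.50), Ifitm3 (-1.29) and Arhgdib (-1.28), and higher for Col10a1 (4.48), Gm37797 (2.49), Cryba4 (2.47), Efhd1 (2.23), Creg2 (1.81) and Mtcl1 (1.79).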

How the results depend on the processing

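With table totals 627 genes were higher and 3559 lower after distal amputation, and 642 and 3425 with totals taken without the highest gene, against 1237 and 1419; the median of all genes was then -0.19 in both. Leaving out single libraries gave 896 to 1141 higher and 930 to 1276 lower genes. Other alternatives kept both counts within 1.5 times, among them scaling by median-ratio factors, which moved them opposite to table totals (1579 and 1031). Also among them were the replicate block (1245 and 1408) and the fit of the 8 libraries alone (968 and 949). That smaller fit shared 1753 of the 2656 calls. The replicate numbers were not taken to pair the libraries. Among the distal libraries only replicate 4 correlated best with the proximal library of its own number. The 286 genes whose difference at 21 days differed from that at 14 days became 741 with table totals, 723 with totals without the highest gene, 164 in a fit of those groups alone and 181 with the lowest-spread direction as a covariate. Leaving out single libraries gave 105 to 460: 105 and 175 without distal 14 replicates 2 and 3, 123, 163 and 155 without distal 21 replicates 1, 2 and 4, 122 without proximal 14 replicate 3, and 460, 170, 128 and 179 without proximal 21 replicates 1 to 4. The cause of these shifts was not tested. Of 182 named genes 0 changed sign while called in the main fit or in that alternative. Sign changes of genes called in neither were not counted. Of the 155 called, 118 kept the call in every alternative that gave them a value, 31 lost it without some single library and 27 in another alternative, and 5 others gained a call. Sequencing depth is unknown, so low values such as those of Irx1, Wnt9b and Lcn2 have no counting error here.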

Other observations

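Of 15 complement genes 1 was higher and 1 lower, near the shares over all genes (8.22% and 9.43%). They had 11 negative differences and a median of -0.16. The higher gene was Masp1, a protease that starts the lectin branch of complement (1.09 ± 0.16). The lower gene, Cfp (-0.59 ± 0.18), was not called without distal replicate 1, 2 or 3 or proximal replicate 1 or 4, and 2 and 3 genes were called higher without distal replicate 2 and without proximal replicate 1. From the axon guidance and limb mesenchyme lists, 4 more genes that rose are given here. Gdnf, a neurotrophic factor of nerve and kidney development, was at 195, 125, 235 and 138 in distal libraries, against 110, 88, 82 and 84 in proximal libraries (0.88 ± 0.19, adjusted p = 0.0028 by limma). Sema6a, a semaphorin, rose by 0.55 ± 0.08. Alx4 and Prrx1, limb mesenchyme homeobox genes, rose by 1.79 ± 0.30 and 0.55 ± 0.10. In none of these 4 genes or Masp1 did a distal library overlap a proximal one.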
